A study of Mus musculus with 119 samples.

Results

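The comparison of THC with vehicle in the prefrontal cortex (PFC) of female mice rests on 12 of the 119 RNA-seq libraries of the study. They are the libraries numbered FTL_261 to FTL_266, from 6 vehicle-treated females, and FTL_267 to FTL_272, from 6 THC-treated females, chosen by the sample titles and not by any measured value. THC (Δ9-tetrahydrocannabinol, the main psychoactive compound of cannabis) was injected intraperitoneally once a day at 10 mg/kg, 21 injections in all, the first on postnatal day (PND) 28 and the last on PND 48, and controls received the vehicle. Behavioral testing began at PND 63, after an interval without drug, and the brains were taken after it, so both groups carry the history of the same assays. The labels give the strain as C57BL/6J and the age as 11 weeks, whereas the methods of the study name C57BL/6NCrl and a later week for both groups. Each library is polyadenylated RNA from a tissue punch of 1 mouse, a mixture of all cell types in the punch, so that fewer cells of a type and less RNA per cell cannot be told apart. The libraries held 20299010 to 25213112 counts, and the median Spearman correlation of a library with the other 11 was lowest in THC library FTL_272, at 0.9934. Vehicle library FTL_264 held more RNA of striatal marker genes than the other 11. Differences of THC from vehicle in the female PFC that rest on it are given with and without it. Gene values set against males or another brain region are given with it only.

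THC acts on the CB1 receptor, encoded by Cnr1, which sits largely on presynaptic terminals in the cortex and reduces transmitter release when it is bound. Its natural ligands, the endocannabinoids, are made on demand in the postsynaptic cell, 2-arachidonoylglycerol by the enzyme that Dagla encodes. Immediate early genes such as Fos, Egr1 and Npas4 encode mostly transcription factors and are switched on within minutes of neuronal activity, without new protein synthesis, through promoter elements that bind CREB and serum response factor. Their RNA is short-lived, so that their level in tissue reflects recent activity of the animal. Per2 encodes a repressor of the circadian clock, and its transcription also responds to CREB.

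No gene passed the edgeR test of THC against vehicle in the female PFC. Of 15904 genes tested with edgeR, 0 (0.00%) had an FDR under 0.05 together with a log2 fold change of 0.4 or more in either direction, and the smallest adjusted p was 0.659. Before adjustment, 928 genes (5.84%) had a p under 0.05, 430 higher (2.70%) and 498 lower (3.13%) with THC. DESeq2 with its filter set at the FDR threshold gave 0 calls and 985 of 29888 genes (3.30%) at an unadjusted p under 0.05. With limma voom there were 0 calls and 917 of 15904 genes (5.77%). DESeq2 at its default filter level of 0.1 adjusted over the 7873 genes that it kept and called 1 gene (0.0127%), Per2. Below, lower and higher describe group means, and none of these differences passed the edgeR FDR.

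Most immediate early genes had lower means with THC. Of 22 listed, 20 passed the filter on low counts, and Fosl1 and Maff did not. The log2 fold change was below 0 in 18 of the 20 and its median was -0.26, whereas the median over all genes tested was 0.002. At an unadjusted p under 0.05, 7 of the 20 were lower with THC (Fos, Fosb, Egr1, Egr2, Egr4, Npas4 and Ier5), against 3.13% of all genes, and 1, Jun, was higher, against 2.70%. Their adjusted p in edgeR ran from 0.753 for Fosb to 0.855 for Fos, Egr4 and Jun. The list, from general knowledge, was chosen with earlier results of these data known. The same libraries lay at the ends of their groups for many of its genes, so these shares are no test of the class.

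**Figure D1:**
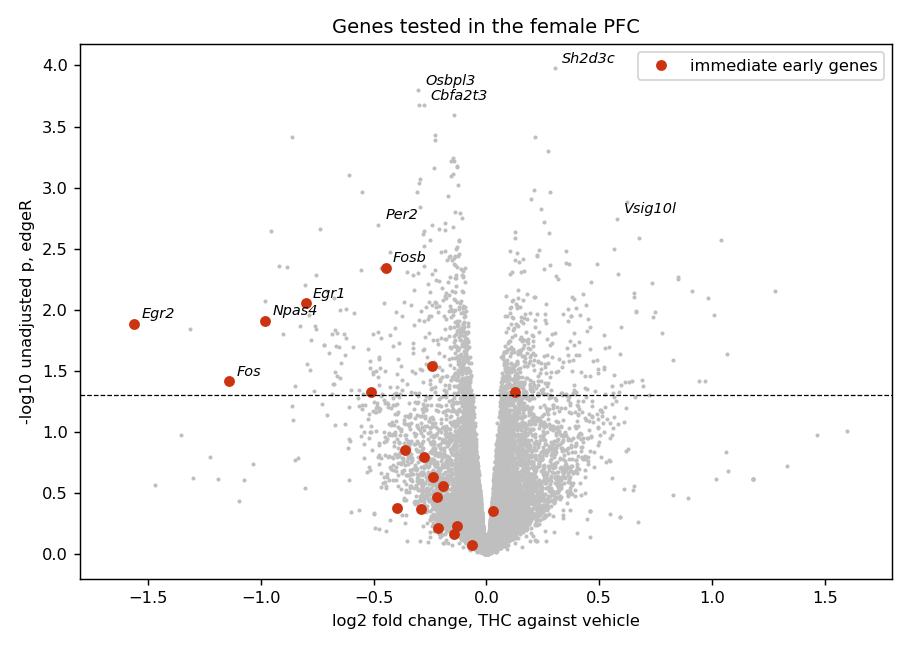
Each grey point is 1 of the 15904 genes tested in the female PFC, by log2 fold change of THC against vehicle (x axis) and the negative log10 of its unadjusted p from edgeR's test across all genes (y axis), with the 20 immediate early genes in red and a dashed line at 0.05. Of the 8 red points above the line, 7 lie left of 0.

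The promoters of the 6 lower genes that had a window are shown because immediate early genes are known to be induced through short promoter elements. The windows, from RefSeq on GRCm38.p6, run from 250 bases before to 50 bases after a transcription start, 5′ to 3′ in the direction of the gene. Capitals mark TGACGT, the core of the cAMP response element that CREB binds, on either strand, and the CArG box, which serum response factor binds. Egr2 has 5 windows, of which the one with most matches is shown. The E-box CACGTG was also searched and does not occur in these 6 windows.
Fos (chr12:85473640-85473939, plus strand): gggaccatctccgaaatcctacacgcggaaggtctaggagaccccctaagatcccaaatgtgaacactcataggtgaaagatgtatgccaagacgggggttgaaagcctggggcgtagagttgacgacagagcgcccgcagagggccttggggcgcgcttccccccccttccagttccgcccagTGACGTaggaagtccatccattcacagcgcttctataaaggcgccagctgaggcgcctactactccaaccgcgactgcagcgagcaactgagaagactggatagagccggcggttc
Fosb (chr7:19309996-19310295, minus strand): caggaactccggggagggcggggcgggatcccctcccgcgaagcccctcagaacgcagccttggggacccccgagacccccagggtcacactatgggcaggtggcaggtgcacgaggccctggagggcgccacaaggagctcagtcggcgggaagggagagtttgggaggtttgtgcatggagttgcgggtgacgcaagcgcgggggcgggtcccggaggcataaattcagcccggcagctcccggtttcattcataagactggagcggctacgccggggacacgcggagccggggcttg
Egr2 (chr10:67537619-67537918, plus strand): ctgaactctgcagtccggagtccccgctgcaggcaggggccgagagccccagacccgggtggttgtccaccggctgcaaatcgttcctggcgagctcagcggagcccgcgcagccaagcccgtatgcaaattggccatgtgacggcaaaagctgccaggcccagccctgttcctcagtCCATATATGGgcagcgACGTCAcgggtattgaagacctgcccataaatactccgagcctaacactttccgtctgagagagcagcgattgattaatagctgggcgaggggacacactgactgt
Egr4 (chr6:85513540-85513839, minus strand): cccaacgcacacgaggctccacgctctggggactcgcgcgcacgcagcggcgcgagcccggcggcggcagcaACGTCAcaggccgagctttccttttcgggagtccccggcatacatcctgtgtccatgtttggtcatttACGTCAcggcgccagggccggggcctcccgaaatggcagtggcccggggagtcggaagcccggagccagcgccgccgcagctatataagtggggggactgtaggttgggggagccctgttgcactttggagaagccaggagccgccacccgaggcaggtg
Npas4 (chr19:4989922-4990221, minus strand): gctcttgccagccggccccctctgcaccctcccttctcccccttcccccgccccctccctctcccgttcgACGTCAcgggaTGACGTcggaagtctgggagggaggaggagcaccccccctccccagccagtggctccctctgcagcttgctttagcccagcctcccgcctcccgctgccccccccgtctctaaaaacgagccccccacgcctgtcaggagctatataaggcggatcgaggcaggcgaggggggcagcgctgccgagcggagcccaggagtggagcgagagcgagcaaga
Ier5 (chr1:155099587-155099886, minus strand): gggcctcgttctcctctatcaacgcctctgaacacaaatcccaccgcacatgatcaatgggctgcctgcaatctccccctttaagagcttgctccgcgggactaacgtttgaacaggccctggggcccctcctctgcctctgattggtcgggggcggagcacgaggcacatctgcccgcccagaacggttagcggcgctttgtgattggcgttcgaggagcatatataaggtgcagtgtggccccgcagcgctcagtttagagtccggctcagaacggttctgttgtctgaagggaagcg

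A TGACGT was found in a window of 4 of the 6 lower genes that had one (Fos, Egr2, Egr4 and Npas4) and not in the windows of Fosb or Ier5. Of all 20 immediate early genes tested, 16 had a window and 7 of these (43.8%) held TGACGT, compared to 12.7% of the 11698 tested genes with a window and 8.37% of the 27025 genes in the whole table. A CArG box was found in 1 of the 16, Egr2, compared to 1.62% of tested genes. These letters describe the windows and do not show that a factor was bound there in these mice.

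Fos, which forms the AP-1 factor with Jun proteins, was at 6.22 to 27.2 CPM (counts scaled to a fixed library total) in vehicle, with a median of 23.0, and at 2.81 to 22.0 with THC, with a median of 7.82. Of the 6 THC libraries, 5 lay between 2.81 and 9.41, and FTL_267 alone reached the range of the other vehicle libraries. The lowest vehicle library, FTL_263, lay within the THC range. The log2 fold change was -1.14 ± 0.48 (SE, n = 6 per group, 95% confidence interval -2.21 to -0.07, edgeR unadjusted p = 0.0383).

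Fosb, the AP-1 partner whose truncated product accumulates with repeated drug exposure, ran from 7.54 to 13.1 CPM in vehicle with a median of 11.6, and from 5.94 to 9.81 with THC, with a median of 8.49. All vehicle libraries except FTL_263 were above all THC libraries. Its log2 fold change was -0.45 ± 0.13 (edgeR adjusted p = 0.753). It was the immediate early gene with the smallest p.

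Among the Egr zinc finger factors, Egr1 was at 113 to 272.9 CPM in vehicle (median 209) and 69.8 to 184 with THC (median 115). Overlap came from vehicle library FTL_263, since the next lowest vehicle library (189) lay above the highest THC library, FTL_267 (184). The log2 fold change of Egr1 was -0.80 ± 0.25 (edgeR adjusted p = 0.786). Egr2 had the largest log2 fold change of the list, with levels of 1.06 to 5.72 CPM in vehicle (median 3.61) and 0.268 to 3.003 with THC (median 0.945), a log2 fold change of -1.56 ± 0.52. Egr4 ran from 13.03 to 31.3 CPM in vehicle and from 12.5 to 26.4 with THC, at -0.51 ± 0.23. Egr3 had a log2 fold change of -0.19 ± 0.17 and did not pass an unadjusted p of 0.05.

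Npas4, a neuron-specific factor that acts on inhibitory synapses, ran from 9.45 to 33.2 CPM in vehicle with a median of 18.4, and from 6.59 to 14.1 with THC, with a median of 9.83. The groups overlapped through vehicle libraries FTL_263 and FTL_266, at 13.6 and 9.45. The log2 fold change was -0.98 ± 0.32 (edgeR adjusted p = 0.796). Ier5 was at -0.24 ± 0.10. Jun, in contrast, was at 50.5 to 59.9 CPM in vehicle and 52.5 to 66.4 with THC, a log2 fold change of 0.13 ± 0.06.

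Other genes of the same class did not pass an unadjusted p of 0.05. Arc, which acts on AMPA receptor trafficking at synapses, had a log2 fold change of -0.40 with an interval from -1.44 to 0.65, and its libraries ran from 35.9 to 160 CPM in vehicle and from 31.8 to 165 with THC. Junb (-0.29 ± 0.34) and the orphan nuclear receptor Nr4a1 (-0.21 ± 0.40) spread as widely. Dusp1, a phosphatase of MAP kinases, was at -0.07 ± 0.31. Single libraries moved these values. Without vehicle FTL_265 the log2 fold change of Arc was -0.15, that of Junb -0.15, that of Nr4a1 0.01 and that of Dusp1 0.08, so that the sign of the last 2 turned. Dusp1 was also above 0 without THC FTL_271 (0.02) or FTL_272 (0.07). Without THC FTL_267 Arc was at -0.87 (edgeR unadjusted p = 0.0488) and Junb at -0.58.

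**Figure D2:**
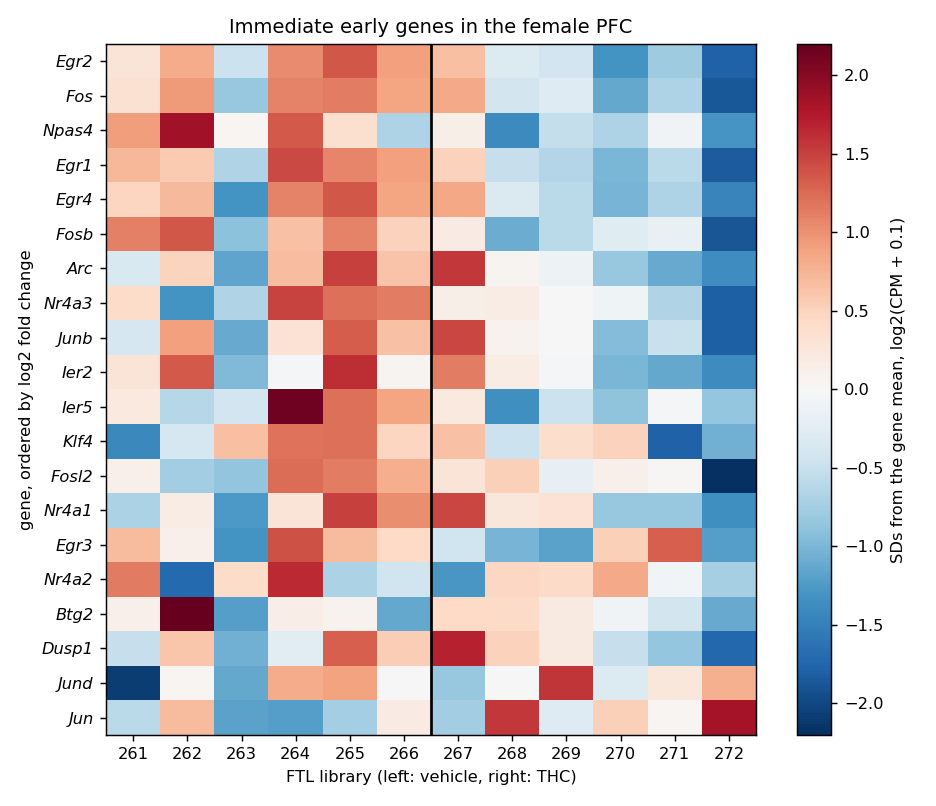
Each row is 1 of the 20 immediate early genes, ordered by log2 fold change, and each column 1 female PFC library, vehicle on the left and THC on the right of the black line, and color gives the distance from the mean of the gene in SDs of log2(CPM + 0.1). Vehicle FTL_263 is blue in most rows and THC FTL_267 red in most rows, against their own groups.

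The same libraries lay at the ends of their group for many of these genes. Vehicle FTL_263 was the lowest of its group in 13 of the 20 genes and FTL_265 the highest in 10. Among the THC libraries, FTL_267 was the highest in 14 and FTL_272 the lowest in 14. The number of immediate early genes lower at an unadjusted p under 0.05 was 4 without FTL_265, FTL_266, FTL_268, FTL_270 or FTL_272, each left out alone, and 9 without FTL_267. The median log2 fold change of the list stayed between -0.41 and -0.17 in these 12 fits. Egr1, Egr2, Npas4 and Fosb kept an unadjusted p under 0.05 in all 12, Ier5 in 7, Jun in 5, Fos in 3 and Egr4 in 2.

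Genes that follow the immediate early wave had log2 fold changes of both signs. Of 16 activity-dependent late response and neurotrophin genes, 2 were lower at an unadjusted p under 0.05 and 0 higher, against 3.13% and 2.70% of all genes, and the median was -0.01. Homer1, a postsynaptic scaffold with a short form induced by activity, was at 208 to 344.8 CPM in vehicle and 164 to 277.5 with THC (-0.39 ± 0.17). Pcsk1, a prohormone convertase, was at -0.23 ± 0.10. Homer1 kept an unadjusted p under 0.05 in 4 of the 12 fits with a library left out and Pcsk1 in 5. Bdnf, the activity-dependent neurotrophin, was at -0.03 ± 0.13.

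Per2 (1:91415982-91459324 of mm10, minus strand) was at 20.4 to 34.7 CPM in vehicle, with a median of 28.9, and at 17.99 to 25.9 with THC, with a median of 19.8. As for Egr1, the overlap came from vehicle library FTL_263, since the next lowest vehicle library (27.1) lay above the highest THC library, FTL_267 (25.9). The log2 fold change was -0.48 ± 0.12 (n = 6 per group, 95% confidence interval -0.75 to -0.21), with an adjusted p of 0.753 in edgeR and 0.0400 in DESeq2 with the default filter. It stayed between -0.56 and -0.41 when each library was left out, with an unadjusted p under 0.05 in all 12 fits.

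Other clock genes had log2 fold changes nearer to 0. Of 14 clock E-box targets and repressors, 1, Per2, was lower at an unadjusted p under 0.05, against 3.13% of all genes. In this list 0 were higher, against 2.70%, and the median was -0.05. Per1 was at -0.08 ± 0.25 and Per3 at -0.04 ± 0.07. Nr1d1, which encodes the repressor REV-ERBα, was at 0.00 ± 0.06, and the output factor Dbp at 0.02 ± 0.13. Of the 5 activators, Arntl, which encodes BMAL1, was at -0.12 ± 0.04 (unadjusted p = 0.00953 in edgeR) and the other 4 did not pass an unadjusted p of 0.05. Of the 9 clock kinases and other regulators, 0 passed. The same shares of all genes, 3.13% lower and 2.70% higher, stand beside these counts. The time of day at which the brains were taken is not given in the sources used here, and its part in these values was not tested.

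The endocannabinoid genes were close to level. Of 18 listed genes, 15 were tested. At an unadjusted p under 0.05, 1 was lower, against 3.13% of all genes, and 0 were higher, against 2.70%. The lower gene was the phospholipase Plcb1 (-0.08 ± 0.04, -0.05 without FTL_272), which passed in 4 of the 12 fits with a library left out. Cnr1 was at 171 to 203 CPM in vehicle (median 188) and at 179 to 222 with THC (median 192), a log2 fold change of 0.05 with an interval from -0.07 to 0.18. Dagla was at -0.04 with an interval from -0.14 to 0.06. Without THC FTL_272 Cnr1 was at 0.01 and Dagla at -0.08 (edgeR unadjusted p = 0.0407). The intervals over all 12 libraries leave out a log2 change of 0.4 in either direction for both genes. Cnr2, which encodes the receptor of immune cells, was too low for testing, with a median of 0.131 CPM and 0 counts in 3 libraries.

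**Figure D3:**
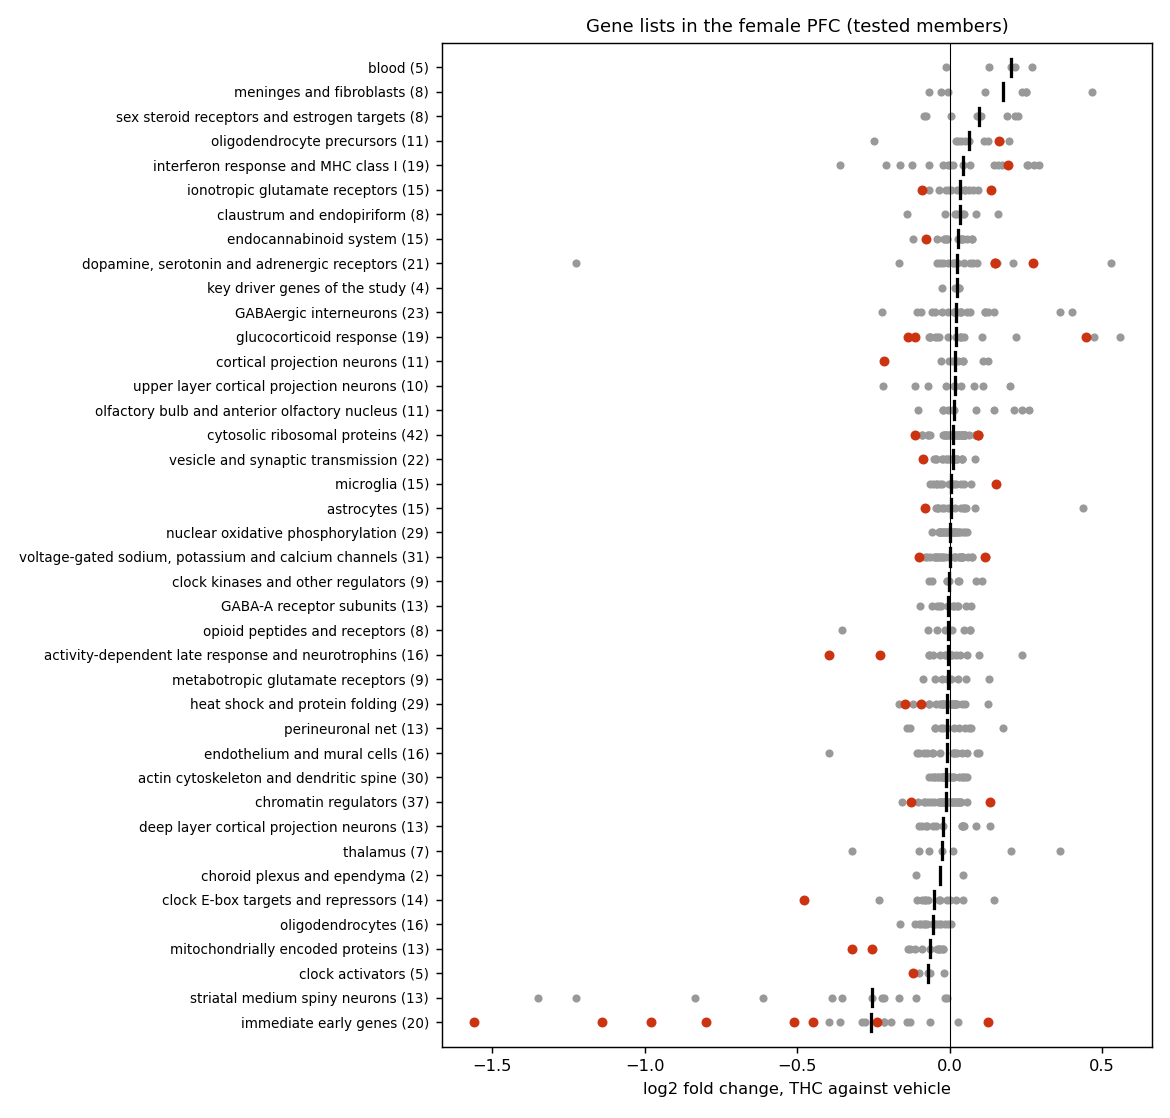
Each point is a tested gene of 1 of 40 lists (number tested in brackets) at its log2 fold change of THC against vehicle, red for an unadjusted edgeR p under 0.05, with a black bar at the median of the list. The immediate early genes and the striatal markers have the lowest medians, both -0.26, and the other lists center between -0.07 and 0.20.

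In other lists single genes passed an unadjusted p of 0.05 and no list had more than 3, where 2.70% of all genes were higher and 3.13% lower. Among dopamine, serotonin and adrenergic receptors, 3 of 21 were higher, namely the adrenergic receptor Adra2c (0.15 ± 0.06) and the serotonin receptors Htr5a (0.15 ± 0.06) and Htr6 (0.27 ± 0.12). With a library left out these kept it in 8, 10 and 6 of the 12 fits. Of 15 ionotropic glutamate receptor genes, Grik1 was higher (0.14 ± 0.06) and Gria4 lower (-0.09 ± 0.04, -0.06 without FTL_272), each in 7 of the 12 fits. Of 13 GABA-A subunits, 9 metabotropic glutamate receptors and 8 opioid genes, 0 passed. In the glucocorticoid list, Hif3a was higher (0.45 ± 0.17), while Nr3c1, the glucocorticoid receptor itself (-0.11 ± 0.04), and Zbtb16 (-0.14 ± 0.05) were lower, of 19 tested.

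Synaptic and structural genes had few members past an unadjusted p of 0.05, beside the same 2.70% and 3.13% of all genes. Of 30 actin cytoskeleton and dendritic spine genes, 0 passed, and their log2 fold changes lay between -0.07 and 0.06. Of 22 vesicle and transmission genes, 1, the active zone protein Rims1 (-0.09 ± 0.03), was lower. Of 31 voltage-gated channels, the calcium channel subunit Cacnb4 was lower (-0.10 ± 0.05, -0.06 without FTL_272) and the potassium channel Kcnc4 higher (0.11 ± 0.04). Cacnb4 kept its unadjusted p under 0.05 in 3 of the 12 fits with a library left out. Of 37 chromatin regulators, the histone demethylase Kdm6a was higher (0.13 ± 0.05) and the DNA demethylase Tet2 lower (-0.13 ± 0.05). The key driver genes that the study names, Kcnc1, Hapln4, Elavl2 and Zcchc12, were at 0.02, 0.03, -0.03 and 0.03, and 0 of the 4 passed.

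The 13 mitochondrially encoded protein genes were all below 0, with a median of -0.06, and 2 were lower at an unadjusted p under 0.05, against 3.13% of all genes. They were mt-Atp8, at 282.3 to 469 CPM in vehicle and 259 to 313.2 with THC (-0.32 ± 0.11), and mt-Nd6, at 27.5 to 42.7 and 26.3 to 30.8 (-0.26 ± 0.08). Vehicle FTL_261 had the highest value of both, and without it mt-Atp8 was at -0.22 and mt-Nd6 at -0.17, both still at an unadjusted p under 0.05. The mt-Atp8 gene overlaps mt-Atp6 and mt-Nd6 lies on the other strand of the mitochondrial genome, so their counts depend on how reads were assigned. The 29 nuclear genes of oxidative phosphorylation had a median of 0.00, and of 42 ribosomal protein genes Rpl18 (0.09) and Rplp0 (0.09) were higher and Rpl38 (-0.11, -0.07 without FTL_261) lower, in 7, 6 and 7 of the 12 fits with a library left out.

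The labelled region was checked against marker genes, and 1 vehicle library of the PFC stood apart. The summed level of 11 cortical projection neuron markers was 7261 to 8198 CPM in these 12 libraries. It was 2496 to 3522 in the 12 libraries of female dorsal medial striatum (DMS). The cortical layer lists went the other way. Deep layer markers summed to 657 to 823 CPM in the PFC libraries and 1213 to 1362 in the DMS libraries. Upper layer markers summed to 406 to 663 CPM in the PFC and 561 to 702 in the DMS, with overlap. The summed level of 15 striatal markers was 221 to 365.9 CPM in 11 of the 12 libraries and 646 in vehicle FTL_264, compared to 9031 to 11280 in the DMS. All 13 tested striatal markers were below 0, with a median of -0.26 and 0 at an unadjusted p under 0.05. Without FTL_264 the median was 0.09 and 4 of the 13 were below 0. The striatal receptor genes Adora2a (-1.35 ± 0.76) and Drd2 (-1.23 ± 0.81), chosen after their values were seen, were the members furthest below 0 of any list after Egr2, and without FTL_264 they were at 0.02 and 0.06.

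Results that the text gives for other genes also changed without FTL_264. The number of immediate early genes lower at an unadjusted p under 0.05 was then 5, since Fos (-1.04, unadjusted p = 0.0738 in edgeR) and Egr4 (-0.46, 0.0907) no longer passed. Homer1 was at -0.31 (edgeR unadjusted p = 0.0981) and Pcsk1 at -0.20 (0.0992). Jun (0.11), Plcb1 (-0.07), Htr6 (0.23), Cacnb4 (-0.10) and Rpl38 (-0.10) also had an unadjusted p above 0.05 without it. The part of the striatal RNA in these values was not tested.

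The summed levels of the other cell type lists overlapped between the groups. Oligodendrocyte markers summed to 1915 to 4793 CPM in vehicle and 2263 to 4075 with THC, a wide spread among punches, and 0 of 16 passed. The list median of -0.05, with 15 of 16 genes below 0, turned to 0.08 without FTL_264, 0.01 without FTL_261 and 0.01 without FTL_267. Of 15 astrocyte markers the glutamate transporter Slc1a2 was lower (-0.08 ± 0.03), of 15 microglial markers the complement gene C1qb was higher (0.15 ± 0.05), and of 11 oligodendrocyte precursor markers Cspg4 was higher (0.16 ± 0.07), against the 3.13% and 2.70% of all genes. Slc1a2 kept an unadjusted p under 0.05 in 10 of the 12 fits with a library left out and Cspg4 in 6. Of the precursor markers 10 of 11 were above 0, with a median of 0.06, and they summed to 451 to 511 CPM in vehicle and 439 to 555 with THC. The highest medians of any list were those of the blood genes, at 0.20 with 4 of 5 above 0, and of the meninges and fibroblast markers, at 0.18 with 5 of 8 above 0, and 0 passed in either. Blood genes summed to 68.1 to 107 CPM in vehicle and 65.4 to 134 with THC, and meninges markers to 37.5 to 51.01 and 40.6 to 51.04. Of 11 cortical projection neuron markers the transcription factor Neurod6 was lower, at 113 to 145 CPM in vehicle and 98.1 to 128 with THC (-0.22 ± 0.07). Of 23 interneuron, 16 endothelial and mural and 10 upper layer markers, 0 passed. Choroid plexus and ependyma markers summed to at most 6.09 CPM, and Ttr, the defining gene of the choroid plexus, was at 0 in 10 of the 12 libraries.

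The smallest p-values of the comparison belonged to small and tight differences. All 6 THC libraries were above all 6 vehicle libraries for 24 genes (0.151%) and below them for 35 (0.220%). Sh2d3c, an adaptor of integrin and receptor signaling, was at 15.8 to 21.0 CPM in vehicle and 21.6 to 25.2 with THC (0.30 ± 0.06, edgeR unadjusted p = 0.000106, adjusted p = 0.659). B3galt6, a glycosaminoglycan enzyme, was at 14.6 to 16.7 and 17.1 to 19.2 (0.22 ± 0.05), and Spata33 at 5.29 to 5.80 and 6.38 to 7.59 (0.28 ± 0.07). Sap30l, a subunit of a histone deacetylase complex, also did not overlap (0.20 ± 0.05). The other 6 of the 10 higher genes of smallest p were Ccdc3, Idh2 (mitochondrial isocitrate dehydrogenase), Arhgap29, Vsig10l, Htra1 and Jph1, from 0.13 for Htra1 to 0.58 for Vsig10l.

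Of the 10 lower genes of smallest p, Osbpl3, an oxysterol-binding protein, was at 45.6 to 59.2 CPM in vehicle and 37.7 to 43.6 with THC (-0.30 ± 0.06, edgeR unadjusted p = 0.000159). Cbfa2t3, a transcriptional corepressor, was at 29.2 to 37.9 and 26.6 to 28.9 (-0.28 ± 0.06). Mat2a, which makes the methyl donor S-adenosylmethionine, was at -0.14 ± 0.03, and Ece1, Hook3 and Ccdc50 also did not overlap. Sh3pxd2b, Rnf165, Spred1 (an inhibitor of Ras and MAP kinase signaling, -0.23 ± 0.05) and Fsd1l overlapped. Among the 20 genes, the absolute log2 fold change exceeded 0.4 for 1, Vsig10l, which was at 1.03 to 1.83 CPM in vehicle and 1.72 to 2.72 with THC.

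In the PFC of male mice, given the same treatment and read in the same deposited table, the immediate early genes had means near or above those of vehicle. Their median log2 fold change was 0.18, 3 of 20 were below 0, and 1, Jund (-0.11), was lower at an unadjusted p under 0.05, against 1.76% of all genes, and 0 were higher, against 2.30%. Fos was at 0.33 ± 0.38, Egr1 at 0.22 ± 0.15, Npas4 at 0.29 ± 0.19 and Per2 at -0.07 ± 0.08. In 1 fit of the 24 PFC libraries the sex x treatment interaction gave 0 calls (0.00%) with edgeR, 965 genes at an unadjusted p under 0.05 (5.87%), and 0 calls with DESeq2, with 1046 genes. The female effect was below the male at an unadjusted p under 0.05 for 7 of 20 immediate early genes, against 2.90% of all genes, and above it for 1, Jund, against 2.97%. The differences were -1.02 ± 0.29 for Egr1, -1.26 ± 0.38 for Npas4, -0.57 ± 0.18 for Fosb, -2.25 ± 0.71 for Egr2, -1.47 ± 0.63 for Fos and -0.61 ± 0.26 for Egr4, with an adjusted p of 0.834 for each in edgeR. For Per2 the difference was -0.41 ± 0.16 (edgeR adjusted p = 0.834). Without FTL_264 the number of immediate early genes with a female effect below the male was 6. The differences of single genes are given with it only.

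Levels of Egr1, Fos, Npas4 and Per2 were set side by side for the 4 groups. Egr1 had a median of 209 CPM in vehicle females, 115 in THC-treated females, 94.7 in vehicle males and 105 in THC-treated males. The medians of Fos were 23.0, 7.81, 6.64 and 6.79, and those of Npas4 18.4, 9.82, 10.2 and 13.6. For these 3 genes the vehicle females had the highest median, but their range overlapped that of the THC-treated females. The ranges of the THC-treated females and both male groups overlapped. The lowest median was that of the vehicle males for Egr1 and Fos and of the THC-treated females for Npas4. Per2 had medians of 28.9, 19.8, 24.3 and 23.2, with the THC-treated females lowest. These levels come from normalization of the 24 libraries together and carry no test.

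**Figure D4:**
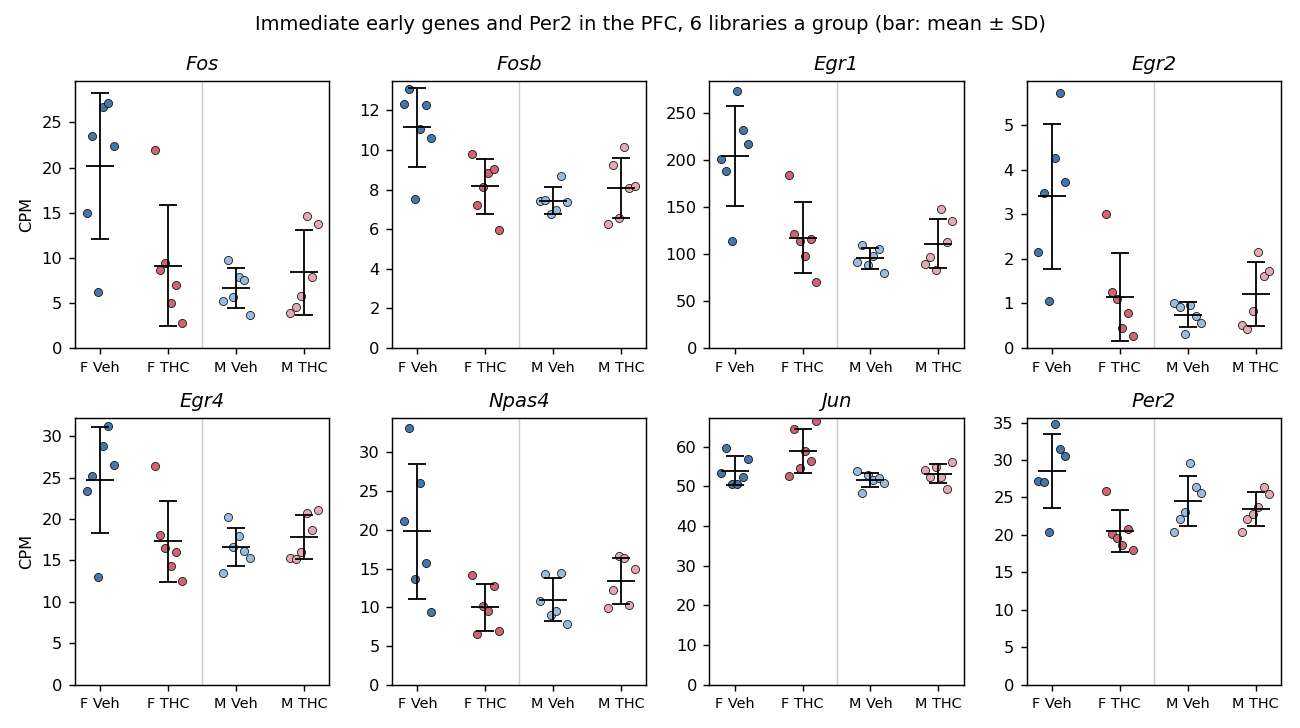
CPM of 7 immediate early genes and Per2 in each PFC library (points), for vehicle (Veh) and THC in females (F) and males (M), with bars for the mean ± SD of 6 libraries. For Fos, Egr1 and Egr2 most vehicle females lie above the other 3 groups, and for Jun the THC-treated females reach the highest values.

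The DMS of female mice of the same treatment, in the same deposited table, had lower immediate early genes with THC as well. The PFC and DMS libraries come from the same mice by the methods of the study, but the labels do not tell which libraries belong to 1 mouse, so the values are given side by side and not as 2 independent results. In the DMS, 10 of 21 tested immediate early genes were lower at an unadjusted p under 0.05, against 5.17% of all genes, and 0 were higher, against 3.73%, and the median was -0.39. With edgeR, 2 genes of the DMS were called (0.0127%). Fos was at -1.15 ± 0.47 in the DMS and -1.14 ± 0.48 in the PFC, Npas4 at -1.38 and -0.98, Egr1 at -0.58 and -0.80, and Per2 at -0.63 and -0.48. Jun was lower in the DMS (-0.24 ± 0.08) where it was higher in the PFC, with a difference of 0.37 ± 0.10 (edgeR adjusted p = 0.596). Cnr1 was at -0.48 ± 0.14 in the DMS and 0.05 ± 0.06 in the PFC, with a difference of 0.54 ± 0.16 (edgeR adjusted p = 0.663). Vehicle library FTL_285 had the highest cortical projection neuron sum of the DMS libraries (3522 CPM, next 2792) and the lowest striatal sum (9031, next 10142). The DMS values, those of Grm8 below among them, were not refitted without FTL_285.

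The region x treatment fit, which treated the 24 female libraries as separate mice, gave 0 calls (0.00%) with edgeR and 1081 genes at an unadjusted p under 0.05 (6.46%). DESeq2 gave 1262 such genes and 1 call, Grm8, a presynaptic metabotropic glutamate receptor. It was at 27.5 to 34.4 CPM in vehicle and 29.4 to 38.2 with THC in the PFC (0.05 ± 0.06), and at -0.86 ± 0.19 in the DMS (edgeR adjusted p of the difference = 0.596).

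**Figure D5:**
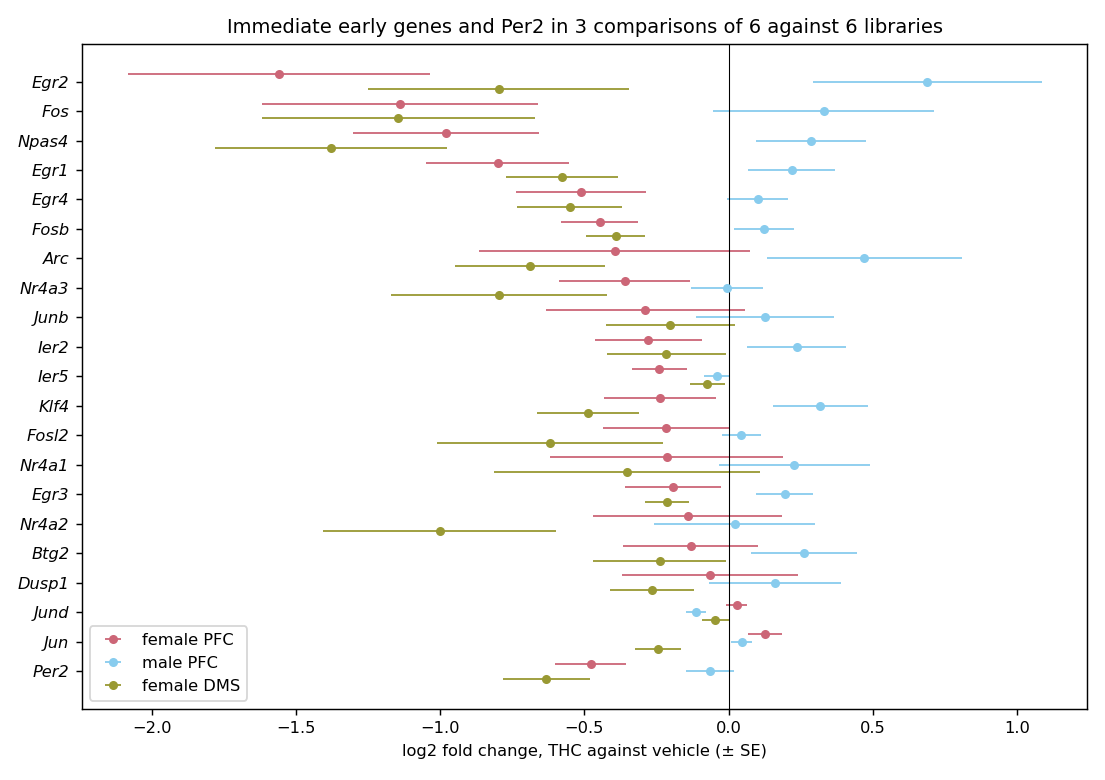
Log2 fold change of THC against vehicle ± SE (x axis) of 20 immediate early genes and Per2, each from its own edgeR fit of 6 against 6 libraries, in the female PFC, male PFC and female DMS. The female PFC lies left of 0 for 18 of the 20 immediate early genes and the male PFC for 3.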

How the data were processed

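RNA from punches of the female PFC was sequenced as stranded, polyadenylated, paired-end libraries, 6 per group. According to the labels and methods, the authors trimmed reads with cutadapt 2.9, aligned them to mm10 with STAR 2.7.3a and counted them with RSEM 1.3.1, so the deposited values are expected counts per gene, with no normalization and 4.75% of values not whole. RSEM divides reads shared by similar genes, and the strand setting is not given in the sources used here. Groups came from the sample titles. Each library is 1 mouse.

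Expected counts were rounded. The main test was edgeR 4.0.16 in R 4.3.3 (its filter on low counts, TMM, robust quasi-likelihood F test, Benjamini-Hochberg adjustment over all genes tested), with calls at an FDR under 0.05 where the log2 fold change was also 0.4 or more, up or down. Levels of tested genes are TMM-normalized CPM with the fitted fold changes on a log2 scale. The SE was derived from the test, as the absolute log2 fold change divided by the square root of its F statistic. The 95% intervals use this SE with the 10 residual degrees of freedom of the 12 libraries. The p-values also borrow degrees of freedom across genes, so the intervals are wider than the p-values imply. Summed marker levels, and levels of genes too low for testing, are CPM of the whole library total without TMM. Interactions were fitted with sex or region. Alternatives were DESeq2 1.42.0, limma 3.58.1 (voom), DESeq2 size factors, no filter, all 4 PFC groups in 1 fit, 1 surrogate variable from sva 3.50.0, and each library left out. The DESeq2 default filter, and the immediate early gene counts and list medians under these settings, were added after seeing the data. On simulated counts with 50 genes changed at each size, edgeR recovered 17 at a log2 change of 0.4, 43 at 0.6 and 49 at 1.2. It made 4 other calls among 15763 genes. A call needs a log2 fold change of 0.4 or more, so genes planted at 0.4 but estimated below it could not be called. The 17 is therefore not the number that the FDR alone would find. The simulation used the spread of these libraries and covers counting and that spread only. All sizes were planted together in 1 simulated data set, in genes of at least 1 CPM, and each gene was drawn on its own. These counts therefore do not give the power for a few changed genes or for genes that move together by library.

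The named genes are any called gene, the 10 of smallest p in each direction at a mean of at least 1 CPM, list members at an unadjusted p under 0.05 or of highest level, Cnr1, Dagla, Per2 and 4 key driver genes, and calls of another tool. Of the genes that this rule names, 1 is not reported here. Other list members, and Grm8, were named after their values were seen. The members and the 40 gene lists, from general knowledge, were chosen with earlier results of these data known. Promoter windows were taken from RefSeq on GRCm38.p6, and gene positions from GENCODE on the same build as mm10. No paired test was made since library numbers differ between groups. The male DMS libraries of the same table, and the other table, were not used here.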

Additional observations from a re-analysis of the deposited data

Results flagged for a closer look

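A value was set aside for a closer look where the highest or lowest of 6 libraries lay far from the other 5 by Dixon's ratio at its 95% critical value. This was so in 13 of 160 groups of values, and chance marks about 1 in 20.

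THC library FTL_267 was far above the other THC libraries for Fos (22.0 CPM, next 9.41), Egr2 (3.003, next 1.25), Per2 (25.9, next 20.8) and mt-Nd6 (30.8, next 27.2). THC library FTL_272 was far below the others for the glutamate receptor Gria4 (112 CPM, next 127) and above them for the potassium channel Kcnc4 (103, next 93.7). Vehicle library FTL_264 was far above the other vehicle libraries for the summed striatal markers (646 CPM, next 280.2), the summed oligodendrocyte precursor markers (511, next 470.3) and the protein disulfide isomerase Pdia4 (40.6, next 34.4), whose log2 fold change of -0.15 was -0.09 without it. Pdia4 was also lowest by far in THC library FTL_268 (27.8 CPM, next 31.0). Vehicle library FTL_261 was far above the others for mt-Nd6 (42.7 CPM, next 32.9), vehicle library FTL_266 far below them for Fsd1l (43.1, next 46.3), and THC library FTL_269 far above them for the summed endothelial and mural markers (331.5 CPM, next 300.6).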

How the results depend on the processing

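The number of genes called stayed at 0 with limma voom, DESeq2 size factors, no filter, all 4 PFC groups, 1 surrogate variable, DESeq2 and each library left out, and was 1 (Per2, log2 fold change -0.48, adjusted p = 0.0400) with the DESeq2 default filter. Without the filter on low counts, which tests more genes, the numbers at an unadjusted p under 0.05 were 1698 for THC, 1669 for the sex x treatment and 1665 for the region x treatment interaction, and DESeq2 gave 1 call in the last. Leaving out libraries in turn, the number at an unadjusted p under 0.05 was 794 to 1068, that of lower immediate early genes 4 to 9, and that of immediate early genes with a female effect below the male 5 to 9. The median of the striatal list ran from -0.360 to 0.0941, reversed without FTL_264, and that of the oligodendrocyte list from -0.171 to 0.0751, reversed without FTL_261, FTL_264 or FTL_267. Of 58 genes that the naming rule picked at an unadjusted p under 0.05, 36 kept it in all 12 fits with a library left out, among them the 20 of smallest p, 22 lost it in at least 1, and 0 changed sign.

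Single genes that had not passed an unadjusted p of 0.05 changed sign. Under other settings these were Fbxw11 (0.0105), Lamp5 (-0.0503), Ppp1r1b (0.0875), Mbp (0.0597) and Nr1d1 (-0.0177) with the surrogate variable, Lamp5 (-0.0152), Ppp1r1b (0.0162) and Nr1d1 (-0.000522) with voom, and Camk2a (0.000942) without the filter. With libraries left out the log2 fold change ran from -0.0257 to 0.0157 for Tef, -0.0255 to 0.0345 for Fbxw11, -0.0247 to 0.028 for Rasgrp1, -0.069 to 0.000800 for Htr2a, -0.000858 to 0.0691 for Cck, -0.0833 to 0.129 for Lamp5, -0.028 to 0.0314 for Camk2a, -0.200 to 0.213 for Ppp1r1b, -0.0737 to 0.0372 for Etv1, -0.039 to 0.00947 for Gng2, -0.15 to 0.116 for Mbp, -0.00267 to 0.0636 for Rgs5, -0.0495 to 0.00252 for Ncan, -0.0465 to 0.00502 for B2m, -0.0156 to 0.0127 for Atp5b, -0.0422 to 0.0599 for Hapln4, -0.0248 to 0.0758 for Zcchc12, -0.519 to 0.00868 for Nr4a1, -0.288 to 0.0778 for Nr4a2, -0.306 to 0.0816 for Dusp1, -0.225 to 0.121 for Btg2, -0.106 to 0.0192 for Bdnf, -0.208 to 0.0399 for Per1, -0.0702 to 0.023 for Per3, -0.0444 to 0.0372 for Nr1d1, -0.0291 to 0.12 for Dbp, -1.53 to 0.0161 for Adora2a and -1.59 to 0.0646 for Drd2. The cause was not tested. The other 2168 values of these and the other named genes kept their direction. Depth was similar across libraries, and small differences of low genes are the ones it limits. No paired analysis was possible because the library numbers are not shared between groups.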
